A study of Mus musculus with 17 samples.

Results

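The stable mouse mammary line that carries an inducible dominant-negative Brg1 (dnBrg1) was compared with the line that carries an inducible dominant-negative Snf2h (dnSnf2h), both with the transgene switched off by tetracycline. The arrays were picked by their titles, and the comparison was chosen with earlier results of these data known. Of the 17 arrays of the series 4 belonged to the comparison, 2 from each line. Both lines derive from 3134Tet cells, which are 3134 mouse mammary epithelial cells with a tetracycline-regulated transactivator, and each has a Flag-tagged remodeler variant integrated into its genome. Removal of tetracycline turns on the transactivator together with the variant. The 4 repressed arrays came from cells plated with tetracycline and harvested after 48 h, so neither the transactivator nor the dominant-negative protein was meant to be present. The induced arrays of the same lines (2 each, 48 h without tetracycline) and the repressed arrays of another line of the same kind, with a dominant-negative Chd4 (dnChd4, 2 arrays), served as separate readings. No array of the control line, which has the transactivator only, entered the comparison. The labels do not say whether a line came from a single clone, nor whether the replicates were separate cultures, so each p-value speaks only of how far these particular samples scattered, and that scatter may be technical.

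Brg1 (gene Smarca4), Snf2h (Smarca5) and Chd4 are the ATPase motors of the SWI/SNF, ISWI and NuRD remodeling complexes, which use ATP to slide, eject or respace nucleosomes. A dominant-negative variant keeps its place in the complex but cannot use ATP, and so blocks the complex when it is expressed. A stably transfected line descends from the few cells that integrated the transgene and survived selection. Such lines can differ from each other in chromosome content, in the integration site and in which genes are on, before any transgene is expressed.

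The 12 arrays of the 3 dominant-negative lines had medians between 5.51 and 5.63 on the log2 scale. By correlation across genes, which are not independent replicates, 9 of these 12 arrays were closest to the other array of their own group. The exceptions were both repressed dnSnf2h arrays, each closest to repressed dnChd4 replicate 1 (r = 0.997 and 0.994), and induced dnSnf2h replicate 2, closest to induced dnChd4 replicate 2. The repressed dnSnf2h arrays also differed most from each other, with an SD of the replicate difference over genes of 0.237 log2 units against 0.184 in the repressed dnBrg1 arrays. The cells are labelled mammary epithelial. Of 25 epithelial markers 17 read at or above 4.76 in all 4 arrays, the level that cuts off the dimmest 30% of genes by mean, and 7 read under it in all 4, the adhesion protein gene Epcam among them (4.10 to 4.19). The mesenchymal intermediate filament gene Vim read 12.7 to 12.8. The leukocyte gene Ptprc (4.31 to 4.65), the macrophage gene Csf1r (4.29 to 4.44), the endothelial gene Pecam1 (4.32 to 4.59) and the adipocyte gene Adipoq (4.10 to 4.37) were under that dim level in all 4 arrays. Their lists were only partly dim. Of 19 macrophage and leukocyte markers 10 were under the level in all 4 arrays and 7 at or above it in all 4. For 15 endothelial markers these counts were 4 and 7, and for 18 adipocyte and fatty acid genes 4 and 12. The mean log2 level of the 25 epithelial genes lay between 5.53 and 5.63 in the 4 arrays and that of the 22 mesenchymal genes between 8.0 and 8.11, with the lines overlapping in both lists, as they did for milk and luminal and for macrophage and leukocyte genes. In 3 other marker lists the array means of the lines did not overlap: endothelial markers (4.85 and 4.96 in dnBrg1 against 5.22 and 5.10 in dnSnf2h), myoepithelial and smooth muscle genes (6.39 and 6.47 against 6.34 and 6.35) and adipocyte and fatty acid genes (6.49 and 6.53 against 6.56 in both arrays). The endothelial list includes Cdh5, which differed by -3.73, while the median difference of its 15 genes was 0.05. These gaps were not tested, and 2 arrays a line can fall apart without a line difference.

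Of 19938 genes tested, 2857 (14.3%) differed between the repressed lines at an adjusted p under 0.05 (limma, Benjamini-Hochberg adjustment). In the dnBrg1 line 1517 of them were higher (7.61% of genes tested) and 1340 lower (6.72%). In 2856 of the 2857 both arrays of one line lay above both arrays of the other. The calls rest on these same readings, so this count is not separate support for them. Most differences were small: the median size among these genes was 0.48 log2 units, and 198 genes (0.993%) were at least 2-fold apart, 122 higher and 76 lower in dnBrg1. A further step to 4-fold left 12 higher and 8 lower genes.

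The number of genes past the threshold depended on the arrays that set the spread. It was 1784 without repressed dnBrg1 replicate 1, 1014 when only the 4 arrays compared were fitted, and 775 when the 5 control arrays were fitted too. The number at least 2-fold apart was 198 and 166 in the latter 2 fits. Centring each array on its median left 37.0% of the called genes higher in dnBrg1, against 53.1% as deposited, so the balance of higher and lower genes rests on the scaling. It also moved with single arrays: the higher share was 45.2% and 61.0% without the first and the second repressed dnBrg1 array, and 42.8% and 65.9% without the first and the second repressed dnSnf2h array. Of 135 genes named by rule that passed, 26 lost the call when 1 of the 4 arrays was left out, none of them among the genes at least 2-fold apart: Baz2b, Cbx2, Ccna2, Cdc20, Cdc25c, Cdc6, Chd9, Col6a2, Ddx3x, Dlx1, Fabp4, Flt1, Gatad2b, Hdac2, Hoxc11, Hoxc13, Ier2, Ifit2, Igf2, Kitl, Mt1, Pdgfrb, Rsf1, Smarcc2, Ss18 and Tap2. With the control arrays in the fit 51 of the 135 lost it, 7 of them at least 2-fold apart: Aldh1l2, Cp, Cxcl3, Fabp5, Padi3, Slc7a11 and Trp53inp1.

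The genes highest in dnBrg1 over dnSnf2h were led by Nckap1l and Myh10. Nckap1l, which encodes the blood-cell form of a subunit of the actin-regulating WAVE complex, read 8.05 and 8.0 (log2) in the dnBrg1 arrays and 4.43 and 4.47 in the dnSnf2h arrays. Its difference was 3.58 ± 0.090 log2 units (SE, n = 2 arrays a line), an 11.9-fold higher signal (limma adjusted p = 6.32e-12). Myh10, the heavy chain of non-muscle myosin IIB, read 8.55 and 8.33 against 4.98 and 4.90, a difference of 3.50 ± 0.10 (limma adjusted p = 3.69e-11). For both genes the gap between the lines was far wider than the gap between replicates. Bche, the serum esterase butyrylcholinesterase, read 6.56 and 6.58 against 3.93 and 3.78. The cell-surface ligand gene Cd48, best known from leukocytes, read 5.83 and 5.94 against 3.24 and 3.37. Jup, which encodes plakoglobin of desmosomes and adherens junctions, read 7.98 and 7.85 against 5.56 and 5.60, a difference of 2.34 ± 0.14. The lines did not overlap for any of these 5 genes, which the rule for naming them required. The rest of the 14 highest were the clustered protocadherins Pcdhb2 (2.66) and Pcdhb5 (2.15), the adhesion protein gene Flrt2 (2.13), the secreted guidance factor gene Sema3e (2.11), Serpinb8 (2.05), the aldehyde dehydrogenase gene Aldh1a7 (2.02), Nlrp4e (2.0), the stromelysin gene Mmp3 (2.0) and the adhesion receptor gene Adgrl2 (2.0).

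The genes lowest in dnBrg1 were led by Cdh5, the cadherin of endothelial junctions, which read 3.86 and 4.47 in the dnBrg1 arrays and 7.79 and 8.0 in the dnSnf2h arrays. Its difference was -3.73 ± 0.16, a 13.3-fold lower signal (limma adjusted p = 2.95e-09). Nid1, which encodes the basement membrane linker nidogen 1, read 4.78 and 4.64 against 7.49 and 8.10, a difference of -3.09 ± 0.18 (limma adjusted p = 6.25e-08). Both genes were at or near the dim level in dnBrg1 and well above it in dnSnf2h. Sncg, a synuclein gene, read 5.53 and 6.18 against 8.77 and 9.08, and the signalling adaptor gene Afap1l2 read 5.63 and 5.36 against 8.39 and 8.41. Sting1, the sensor of cyclic dinucleotides in the innate response to cytosolic DNA, read 6.71 and 6.50 against 8.56 and 8.46, a difference of -1.91 ± 0.11 (limma adjusted p = 6.25e-08). The lines did not overlap for these genes either, again as the rule required. The rest of the 14 lowest were the histone gene H4c9 (-2.43), the cytoskeletal adaptor gene Sorbs2 (-2.33), the phospholipase gene Pla1a (-2.01), the germ cell and embryonic gene Dppa4 (-2.0), Sh3rf2 (-1.91), the protein-citrullinating enzyme gene Padi3 (-1.89), Shtn1 (-1.86), Chic1 (-1.80) and the secreted growth factor gene Clec11a (-1.73). H4c9 has near-identical copies elsewhere in the genome, as do the Pcdhb genes, and their probe sets may read more than 1 of them.

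All 28 of these genes had a limma adjusted p of 5.40e-05 or lower. In 6 of the higher genes both dnSnf2h arrays, and in 2 of the lower genes (Cdh5 and Chic1) both dnBrg1 arrays, were under the dim level, and whether those readings were above background was not tested. Read on the arrays of the dnChd4 line, the same genes set dnBrg1 apart: over the 198 genes at least 2-fold apart, the repressed dnChd4 mean lay nearer to the dnSnf2h mean for 197 and nearer to the dnBrg1 mean for 1. That 1 gene, Zfp979, read 7.22 and 7.29 in dnBrg1, 6.90 and 7.10 in dnChd4, and 6.09 and 6.02 in dnSnf2h; it was singled out after its values were seen. For 99 of the 198 the dnChd4 mean lay outside the interval between the means of the other 2 lines. The plot of single array readings shows this for the 28 genes. Comparisons of dnBrg1 with either line share the dnBrg1 arrays, so they are not separate evidence about dnBrg1.

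**Figure D1:**
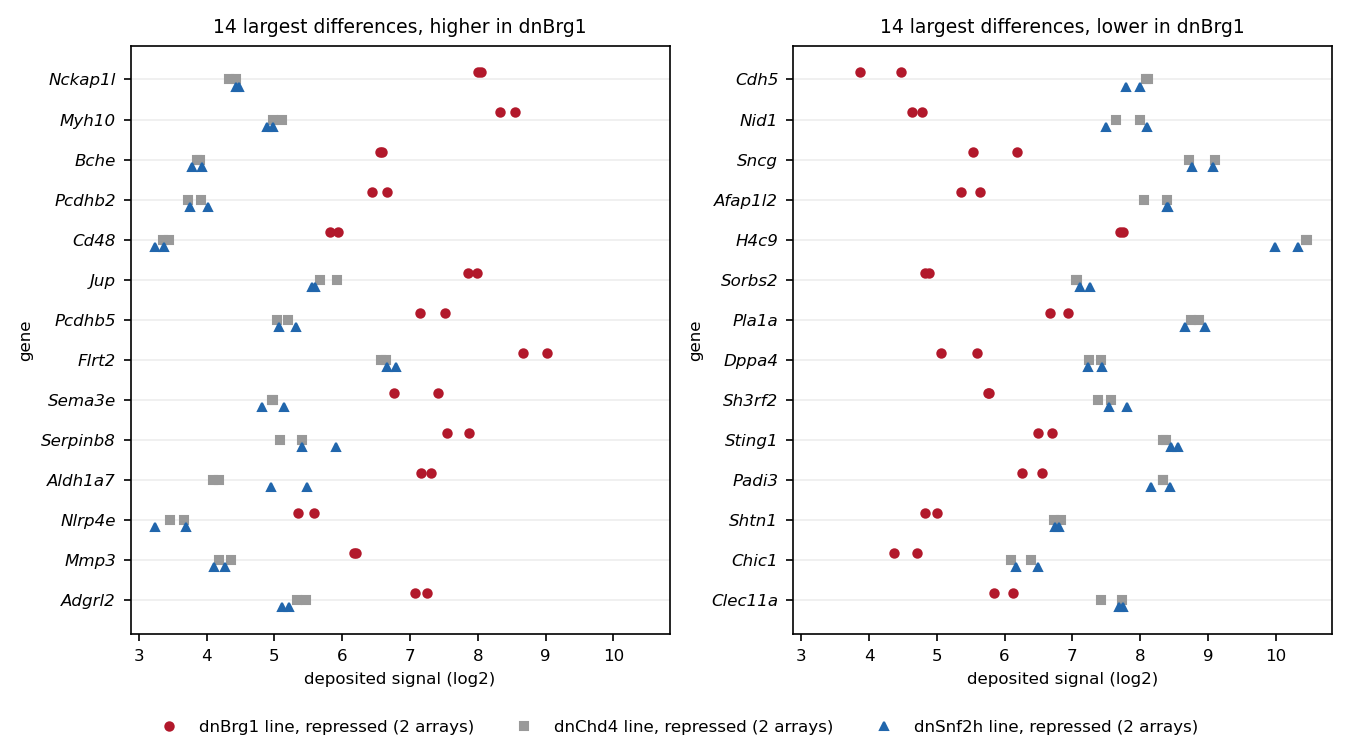
Deposited log2 signal (horizontal axis) of the 14 genes highest (left) and the 14 lowest (right) in dnBrg1 over dnSnf2h, with 1 point for each repressed array of the dnBrg1 (circles), dnChd4 (squares) and dnSnf2h (triangles) lines. The circles stand apart from the triangles for all 28 genes, which the choice of genes required. The squares lie near the triangles, with Aldh1a7 lower in dnChd4 than in dnSnf2h.

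Many of the small differences ran along chromosomes. Genes were placed in order by the RefSeq gene table (assembly GRCm38.p6), and a running median of the line difference was taken over 31 neighbouring genes of the brighter 50% (mean log2 signal of 5.92 or more). A stretch of at least 40 window centres shifted by 0.15 or more from the median of these genes was taken as a block. These settings were chosen after the data were seen and on the repressed difference itself, so the blocks are a description and carry no test. There were 15 blocks, 9 lower and 6 higher in dnBrg1. They held 26.6% of the genes and 46.6% of the genes past the threshold, with 25.1% of genes called inside them and 10.4% outside.

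The blocks lower in dnBrg1 held 3899 genes, of which 879 were called lower and 67 higher, and 65.6% of all lower calls lay in them. The blocks higher in dnBrg1 held 1395 genes, 368 called higher and 16 lower, and 24.3% of all higher calls lay in them. Outside the blocks 1082 genes were higher and 445 lower, and the median difference of the brighter genes there was 0.09. Most lower calls thus lay in the 9 lower blocks, and most higher calls lay outside the blocks. The blocks were found on this same difference, so calls in a block's direction gather there by construction. The balance of higher and lower calls also depended on the scaling, as given above.

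The deepest block covered the first part of chromosome X, from Vamp7 to Vma21 in gene order. Its 111 brighter genes had a median difference of -0.67, a ratio of 0.631, and 104 of them were below 0. The mean log2 signal of these genes was 7.64 and 7.55 in the repressed dnBrg1 arrays against 8.14 and 8.25 in the repressed dnSnf2h arrays and 8.25 and 8.21 in the repressed dnChd4 arrays. The difference stopped abruptly in the running median, and the later genes of chromosome X lay near those of other chromosomes. The next deepest blocks were on chromosome 2 (from Fam171a1 to Zeb2, median -0.32, and from Fnbp4 to Bub1b, -0.30), chromosome 14 (Rpp14 to Itm2b, -0.32), chromosome 8 (Aga to 1700016A09Rik, -0.31) and all of chromosome 18 (-0.29). Chromosome 16 (Tfrc to 4930453N24Rik, -0.27), chromosome 10 (Rpf2 to C2cd4c, -0.22) and all of chromosome 3 (-0.19) held the shallower ones. Each of these stretches had 76.5% to 93.7% of its brighter genes lower in dnBrg1, against 34.2% outside the blocks.

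Higher blocks covered the first part of chromosome 4 (Dhrsx to Plaa, median 0.34), a part of chromosome 19 (Ighmbp2 to Dmrt3, 0.32), the end of chromosome 10 (Atp23 to Bloc1s1, 0.27), stretches of chromosome 15 (Ghr to Col22a1, 0.27, and Ccdc134 to Spats2, 0.26) and a part of chromosome 7 (Lysmd4 to Stard5, 0.23). On chromosome 18, 112 of 470 genes were lower and 11 higher. On chromosome 19, 128 of 675 were higher and 18 lower. Chromosome 1, which had no block, had 84 higher and 23 lower of 1122. DNA copy number was not measured on these arrays, and what the blocks reflect was not tested.

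**Figure D2:**
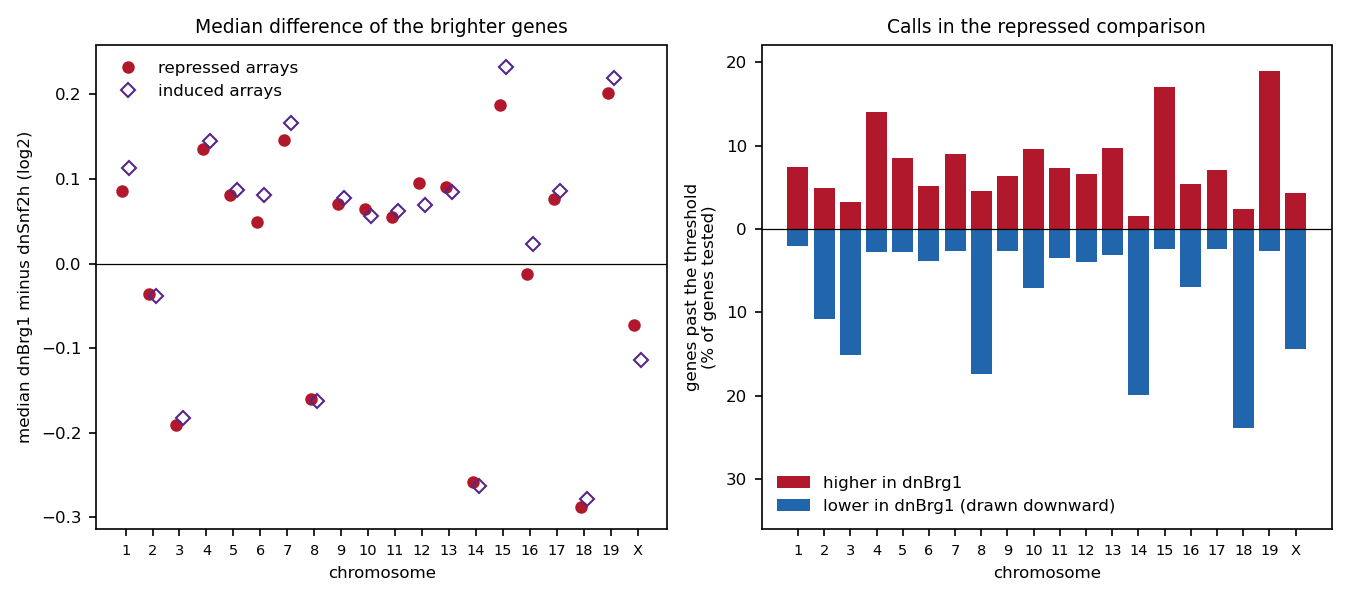
Left, median difference dnBrg1 minus dnSnf2h (log2) of the brighter genes of each chromosome in the repressed (circles) and induced (diamonds) arrays. Right, genes past the threshold in the repressed comparison as a percentage of the genes tested on each chromosome, higher in dnBrg1 upward and lower in dnBrg1 downward; chromosomes 3, 8, 14 and 18 lie lowest and 15 and 19 highest in both panels.

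The same stretches were seen in the induced arrays, which the blocks did not use. The chromosome X block had a median of -0.64 there, the chromosome 14 block -0.32, the chromosome 18 block -0.28, the chromosome 4 block 0.34 and the chromosome 19 block 0.36. The shift was also seen between dnBrg1 and dnChd4. In the repressed arrays dnBrg1 minus dnChd4 had medians of -0.66, -0.29 and 0.32 in the blocks of chromosomes X, 18 and 4. The dnSnf2h minus dnChd4 medians of the same blocks were -0.03, -0.02 and -0.04. Both differences of dnBrg1 use the same dnBrg1 arrays, and which line had moved was not tested.

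**Figure D3:**
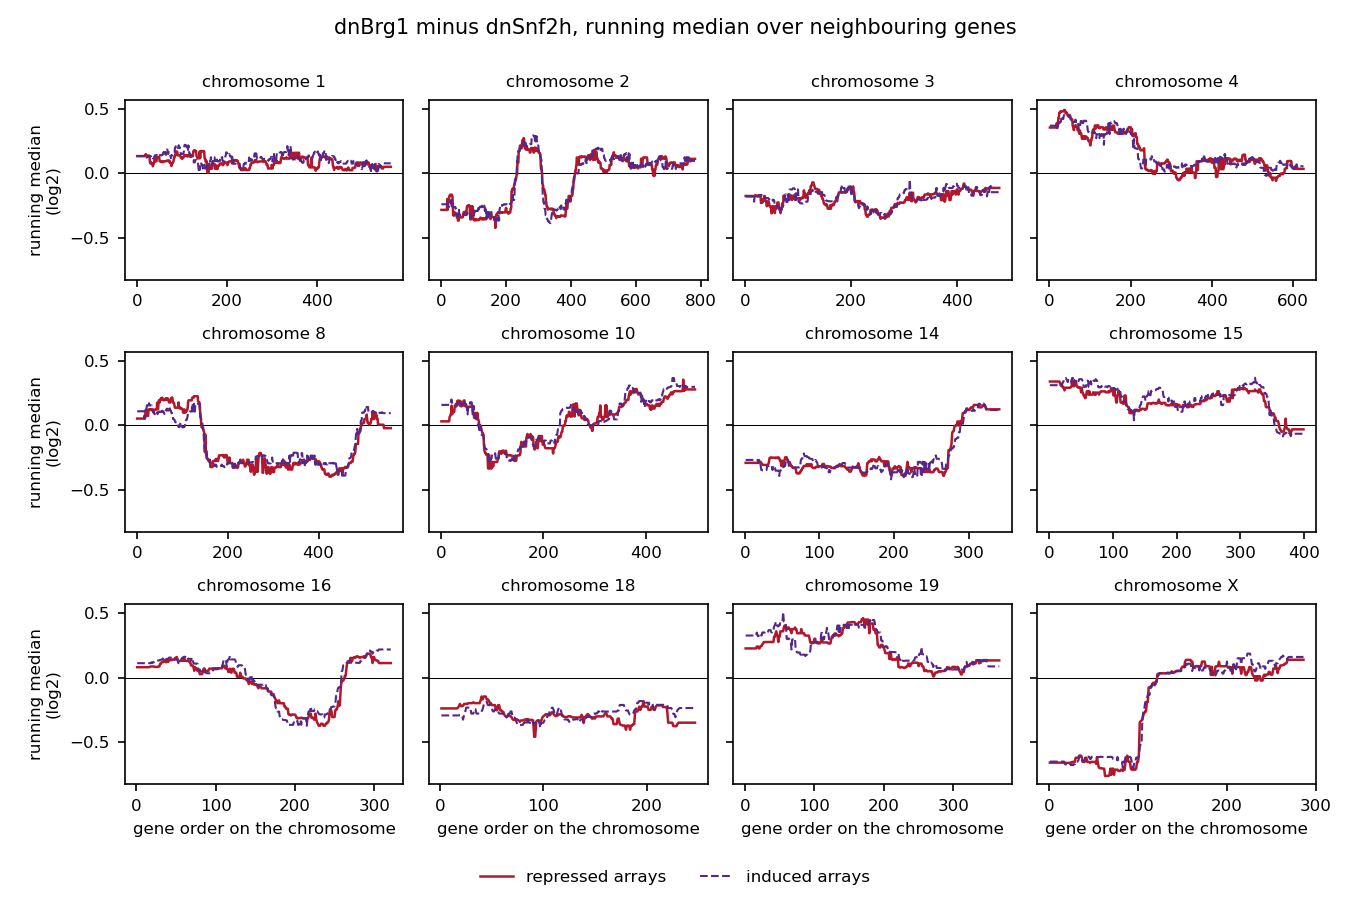
Running median over 31 neighbouring genes of dnBrg1 minus dnSnf2h (log2, vertical axis) by gene order along 12 chromosomes, in the repressed arrays (solid lines) and the induced arrays (dashed lines). Both lines show a step on chromosome X from about the block median of -0.67 to above 0, long stretches below 0 on chromosomes 2, 3, 8, 14 and 18, and stretches above 0 on chromosomes 4, 15 and 19; chromosome 1 has no block.

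Of the 198 genes at least 2-fold apart, 71 (35.9%) lay in blocks, which held 26.6% of all genes, and 39 of these were lower genes in lower blocks, 22 higher genes in higher blocks, 10 higher genes in lower blocks and 0 lower genes in higher blocks. The other 127 lay outside. After each array's mean of a block was subtracted from that block's genes, all 71 genes in blocks still passed the threshold, 34 of them at least 2-fold apart. Over all genes 173 were then at least 2-fold apart, and 1850 of the 2857 calls were kept. The share of called genes that were higher in dnBrg1 then came to 66.6%. Of the 28 highest and lowest genes, 11 lay in blocks: Cdh5, Sncg, Sting1, Sh3rf2, Dppa4 and Pla1a in the direction of lower blocks, Aldh1a7 in that of a higher one, and 4 against theirs. Those 4 were Bche and Adgrl2 on chromosome 3 and Pcdhb2 and Pcdhb5 on chromosome 18. The clustered Pcdhb genes, adhesion proteins that neighbouring cells use to tell each other apart, were looked at as a family after those 2 values were seen. Of the 20 others measured, 6 were higher and 1 lower in dnBrg1, beside 7.61% and 6.72% over all genes. Their median difference was 0.22 in the repressed and 0.02 in the induced arrays, and 8 of the 20 had a mean above the dim level.

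Of the motors that the 3 lines were built around, only Smarca5 passed. Smarca4 (Brg1) read 9.66 and 9.46 in dnBrg1 and 9.13 and 9.43 in dnSnf2h, a difference of 0.27 ± 0.11 that did not pass (limma adjusted p = 0.135). Smarca5 (Snf2h) read 9.27 and 8.93 against 9.69 and 9.81 and was lower in dnBrg1 by 0.65 ± 0.12 (limma adjusted p = 0.00181); it lies in the lower block of chromosome 8, whose median was -0.31, and did not pass after block means were subtracted. Smarca2, which encodes Brm, the alternative motor of SWI/SNF, read 9.52 and 9.24 against 8.50 and 8.88, a difference of 0.70 ± 0.13 (limma adjusted p = 0.0023). Chd4 differed by 0.10 ± 0.11 (limma adjusted p = 0.635), and Smarca1, the second ISWI motor, was under the dim level in all 4 arrays. The labels do not give the species or the part of the remodeler cDNAs, so a probe set need not read the transgene. Beside 14.3% called over all genes, 5 of 22 remodeler ATPases measured were higher and 3 lower, over 24 SWI/SNF subunits 3 and 4, over 11 ISWI partners 3 and 1, and over 10 NuRD subunits 1 and 2. All 4 lower SWI/SNF subunit genes, Ss18 among them, lay in lower blocks, and 2 of the 3 higher ones in higher blocks. The remaining higher one, Bcl7a, lay outside and was higher by 0.60 ± 0.093 (limma adjusted p = 0.000572).

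Gene lists for pathways, complexes and cell types were read by counts, beside the same 14.3%. That share includes the dimmest genes: without the dimmest 30%, 2948 of 13956 genes passed, a higher share. Most members of most lists lay above the dim level, so 14.3% is a low mark for them, the remodeler lists above included. The lists were chosen with earlier results of these data known. The balance of higher and lower calls, which over all genes rested on the scaling, was not read again by list. Over 45 lists, 1022 distinct genes were measured. In 3 lists no member passed: Igf binding proteins (7 measured), CDK inhibitors and G1 cyclins (12) and germline and placenta genes (26).

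Adhesion, guidance and matrix lists had calls in both directions. Of 35 measured guidance ligands and receptors 6 were higher and 2 lower in dnBrg1. Sema3c, a secreted semaphorin gene, read 9.28 and 9.01 against 7.15 and 7.19, a difference of 1.98 ± 0.11 (limma adjusted p = 6.25e-08). Efna5, which encodes a membrane-anchored ephrin ligand, was higher by 1.56 ± 0.16. With Sema3e, 2 class 3 semaphorin genes were thus among the highest genes, and neither lay in a block. Of 24 integrins and cadherins 2 were higher and 2 lower. The higher ones were Itga6, a laminin receptor chain (0.96 ± 0.18), and Itga1, a collagen receptor chain (0.95 ± 0.13), and Cdh5 led the lower ones. Of 25 epithelial markers 2 were higher and 3 lower: Jup led the higher ones, while Krt14, the keratin of basal epithelial cells, read 7.49 and 7.24 against 8.82 and 9.02 and was lower by 1.55 ± 0.16 on the log2 scale (limma adjusted p = 1.26e-05). Krt8 and Krt18, the luminal keratins, differed by 0.12 ± 0.11 and 0.00 ± 0.12 and did not pass. The other 20 epithelial genes did not pass, and the median difference of the list was 0.04.

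Basement membrane and matrix glycoprotein genes gave 3 higher and 4 lower of 22. Thbs2, which encodes the secreted thrombospondin 2, read 8.09 and 7.90 against 5.88 and 6.37, a difference of 1.87 ± 0.14 (limma adjusted p = 7.24e-07). Vcan, the proteoglycan versican, was higher by 1.75 ± 0.19, and Nid1 was the lowest of the list. Of 21 genes in the collagen list 3 were higher and 2 lower. Col8a1 differed most among them, and Col4a1 of basement membranes was higher by 0.54 ± 0.10. Matrix proteases and their inhibitors had 4 higher and 7 lower of 23, or 47.8%. Mmp3 read 6.21 and 6.17 against 4.11 and 4.27, and Plat, which encodes tissue plasminogen activator, was higher by 1.05 ± 0.17. Timp1, an inhibitor of these proteases, read 8.09 and 8.16 against 9.27 and 9.15 and was lower by 1.08 ± 0.11 (limma adjusted p = 1.64e-05); it lies in the lower block of chromosome X. Mesenchymal and fibroblast markers had 4 higher and 4 lower of 22, and 3 of the 4 lower ones lay in lower blocks. Myoepithelial and smooth muscle genes had 2 higher and 1 lower of 14.

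Chemokine, interferon and innate gene lists had more lower than higher calls in dnBrg1. Of 27 CC and CXC chemokines 2 were higher and 5 lower. Ccl5, which attracts lymphocytes and monocytes, read 5.97 and 6.04 against 7.52 and 7.78, and the neutrophil attractant Cxcl3 read 6.38 and 6.31 against 7.93 and 8.05. Both were lower by 1.65 log2 units (limma adjusted p = 2.6e-06 and 5.91e-07). Cxcl12, which guides cells through the receptor Cxcr4, went the other way, with 9.40 and 9.21 against 7.58 and 7.47, a difference of 1.78 ± 0.14. Interferon-stimulated genes had 1 higher and 8 lower of 29, with a median difference of -0.10. Ifit1, a sensor of foreign RNA, read 4.41 in both dnBrg1 arrays and 5.66 and 5.93 in the dnSnf2h arrays, and the virus-tethering protein gene Bst2 was lower by 0.73 ± 0.094. Sting1, which can act upstream of this response, was lower too and lies in the lower block of chromosome 18 (block median -0.29). Any link between Sting1 and these genes was not tested. In the induced arrays 13 genes of the list were lower and 2 higher. Antigen presentation genes had 0 higher and 1 lower of 16, and macrophage and leukocyte markers 1 higher (the actin-bundling Lcp1, 0.91) and 1 lower (the endotoxin coreceptor Cd14, -1.04) of 19. Of 26 acute-phase and innate secreted protein genes 2 were higher and 4 lower: Saa3, an acute-phase apolipoprotein gene, was higher by 1.55 ± 0.16, and Lcn2, the iron-siderophore binder, was lower by 0.93 ± 0.15. Cp, which encodes the copper oxidase ceruloplasmin, was lower by 1.25 ± 0.19 and lies in the lower block of chromosome 3. Endothelial markers had 0 higher and 2 lower of 15 (Cdh5 and Flt1), and 11 of the 15 had a mean above the dim level, though not Pecam1. Milk and luminal genes had 1 higher of 19, the luminal transcription factor gene Gata3 (9.44 and 9.09 against 8.03 and 8.41).

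Growth factor and developmental signalling lists had more higher than lower calls in dnBrg1. The shares called were 22.5% in the Wnt, 21.4% in the receptor tyrosine kinase and 22.7% in the Ras-MAPK output list. They are to be read beside the 2948 of 13956 genes called without the dimmest 30%. The TGF-beta and BMP list had 11 higher and 4 lower of 34, or 44.1%. Id2, a BMP-induced inhibitor of helix-loop-helix factors, read 8.68 and 8.76 against 7.56 and 7.85, a difference of 1.01 ± 0.16 (limma adjusted p = 0.000723). Gdf11, a secreted ligand of the family, was higher by 0.81 ± 0.14, and Ccn2, a matrix-associated target, by 0.74 ± 0.13. In the induced arrays the list had 4 higher and 4 lower, with Gdf11 and Ccn2 at 0.24 and 0.12. The Wnt list had 7 higher and 2 lower of 40: the ligand genes Wnt5a (1.22 ± 0.14) and Wnt10b (1.07 ± 0.13) and the secreted modulator gene Sfrp2 (0.90 ± 0.14). Wnt5a lies in the lower block of chromosome 14 and Sfrp2 in that of chromosome 3, against the direction of their neighbours. In contrast, 3 of the 7 higher Wnt genes lay in higher blocks, Wnt10b on chromosome 15 among them. Receptor tyrosine kinases and their ligands had 8 higher and 1 lower of 42. The receptor gene Erbb3 read 6.48 and 6.41 against 5.06 and 5.41 and was higher by 1.21 ± 0.13. Both Erbb3 and Gdf11 lie in the higher block of chromosome 10, whose median was 0.27. Igf2r, which clears Igf2 and carries lysosomal enzymes, read 5.70 and 5.95 against 7.24 and 7.53 and was lower by 1.56 ± 0.15 (limma adjusted p = 8.49e-06). Lysosome genes nonetheless had 5 higher and 1 lower of 32, among them Arsb (0.77 ± 0.14), Gusb (0.74 ± 0.097) and Npc2 (0.60 ± 0.093).

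The Ras-MAPK output list had 4 higher and 1 lower of 22. Spred2, an inhibitor of Ras signalling, read 9.30 and 8.95 against 7.22 and 7.67, a difference of 1.68 ± 0.17, and the ERK phosphatase gene Dusp6 was higher by 0.74 ± 0.16, while the ligand gene Hbegf was lower by 0.68 ± 0.13 in the chromosome 18 block. AP-1 and immediate early genes had 6 higher and 2 lower of 20, led by Klf4 (8.52 and 8.25 against 6.87 and 6.46), which lies in the higher block of chromosome 4. Of 41 developmental transcription factor genes 5 were higher and 1 lower, or 14.6%, near the share over all genes with dim ones included. Of these 41, 37 had a mean above the dim level. Sox4 read 9.22 and 9.33 against 7.13 and 7.57, a difference of 1.92 ± 0.14 (limma adjusted p = 6.66e-07), and Tbx3, a mammary T-box factor gene, was higher by 1.42 ± 0.12. Hox genes had 0 higher and 2 lower of 37, or 5.41%. Imprinted genes had 1 higher and 1 lower of 27, and DNA methylation and Polycomb genes 2 higher and 0 lower of 26, with Phc1 higher by 0.54 ± 0.093. The glucocorticoid receptor list had 1 higher and 4 lower of 21, led by Tgm2, a protein-crosslinking transglutaminase gene, at -1.26 ± 0.10 (7.54 and 7.36 against 8.78 and 8.63). Of 10 sex chromosome dosage genes 2 were lower, Kdm6a and Ddx3x, both inside the chromosome X block, and after block means were subtracted their differences were 0.029 and 0.23. Xist, the RNA that silences an X chromosome, read 3.57 and 3.64 against 3.54 and 4.04, under the dim level in all 4 arrays.

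Among metabolic lists, cholesterol synthesis had more higher than lower calls in dnBrg1, and glycolysis, oxidative phosphorylation and amino acid genes more lower than higher. Cholesterol synthesis had 7 higher and 0 lower of 18, with a median of 0.20. Cyp51, the lanosterol demethylase gene, read 9.04 and 8.90 against 8.15 and 8.14 (0.83 ± 0.12, limma adjusted p = 0.000253), and Hsd17b7 and Idi1 were higher by 0.73 ± 0.12 and 0.68 ± 0.12. In the induced arrays 9 were higher and 0 lower, and 7 passed the same way in both states. Glycolysis and hypoxia genes had 1 higher and 9 lower of 26. Pfkl, the liver-type phosphofructokinase gene, read 8.21 and 8.19 against 9.18 and 9.37 and was lower by 1.07 ± 0.13. P4ha1, a collagen prolyl hydroxylase gene, was lower by 0.97 ± 0.12, and both lie in the lower block of chromosome 10, whose median was -0.22. Egln3, a hypoxia-induced oxygen sensor gene, was the 1 higher gene at 1.36 ± 0.13. Oxidative phosphorylation genes had 1 higher and 7 lower of 25, and 5 of the 7 lay in lower blocks, among them Ndufa1 on chromosome X (-0.81), Ndufa2 on chromosome 18 (-0.70) and Ndufs3 on chromosome 2 (-0.49).

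ATF4 targets and amino acid genes, which cells raise when amino acids run short, had 1 higher and 10 lower of 27 in the repressed lines, with a median of -0.32. Slc7a11, the cystine importer gene, read 6.97 and 6.75 against 8.21 and 8.28 (-1.39 ± 0.16, limma adjusted p = 3.95e-05), and Aldh1l2, of mitochondrial folate metabolism, read 8.94 and 8.82 against 9.95 and 10.2 (-1.18 ± 0.13). Slc7a11 lies in the lower block of chromosome 3, whose median was -0.19. The arginine transporter gene Slc7a3 was the higher one (0.92 ± 0.14). The counts of this list differed between the states: in the induced arrays 11 were higher and 2 lower, with a median of 0.26, and in 6 genes the line difference itself changed upward past the threshold, against 0 downward. None of these 6 changes passed with the control arrays in the fit or with all probe sets as features, and 2 passed without repressed dnBrg1 replicate 2, without either induced dnBrg1 array or without induced dnSnf2h replicate 1.

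The S100 genes, small calcium-binding proteins, had 0 higher and 5 lower of 14, and 13 of the 14 lie in the lower block of chromosome 3. S100a4 read 9.67 and 9.69 against 10.5 and 10.4, and S100a16 read 7.22 and 7.12 against 8.0 and 7.92. Both were lower by 0.79 log2 units, against a block median of -0.19. Fabp5, a fatty acid carrier gene of the same chromosome, was lower by 1.18 ± 0.092 (7.54 and 7.59 against 8.75 and 8.73), and adipocyte and fatty acid genes had 2 higher and 2 lower of 18. Glutathione and NRF2 target genes had 3 higher and 3 lower of 28; 13 of the 28, and all 3 lower ones, lay in lower blocks, including the heme oxygenase gene Hmox1 on chromosome 8 (-0.93 ± 0.11). Metallothionein and zinc genes had 1 higher and 2 lower of 11. S phase and replication genes had 5 higher and 1 lower of 25, led by Ccne1 (0.69 ± 0.13), G2 and mitosis genes 0 higher and 3 lower of 24, and p53 targets 4 higher and 4 lower of 20. Trp53inp1 was the highest p53 target at 1.84 ± 0.27, with 1 dnSnf2h array at 6.07 and the other at 7.32. It lies in the higher block of chromosome 4, whose median was 0.34. Perp, a desmosomal p53 target gene, was lower by 0.63 ± 0.094.

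**Figure D4:**
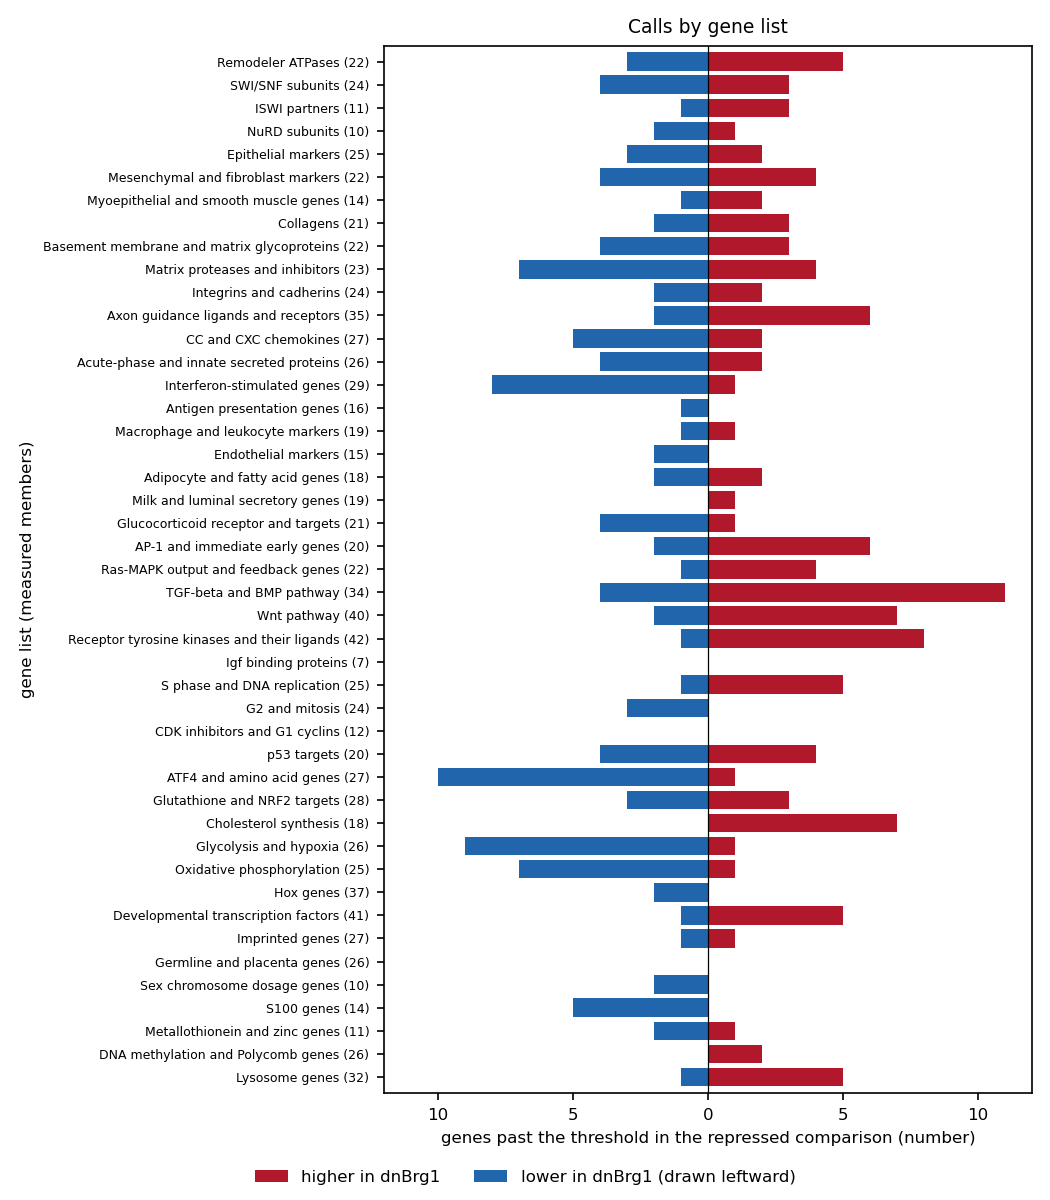
Number of genes past the threshold in the repressed comparison in each of 45 gene lists, higher in dnBrg1 to the right and lower in dnBrg1 to the left, with the number of measured members in parentheses after the list's name. The TGF-beta and BMP list extends farthest right (11 higher) and the ATF4 and amino acid list farthest left (10 lower).

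The difference between the lines was read again in the induced arrays, which share no array with the repressed ones. Both readings came from the same fit and shared each gene's estimate of spread, so their calls are not independent. There 2911 genes passed (14.6%), 1641 higher and 1270 lower in dnBrg1. Genes called in both states in the same direction numbered 1579, which is 55.3% of the repressed and 54.2% of the induced calls, and 21 were called in opposite directions. The induced count was 1439 without induced dnBrg1 replicate 1, 1465 without replicate 2 and 1801 without induced dnSnf2h replicate 1, and the number shared was 950 and 959 without the first and the second induced dnBrg1 array. With the control arrays in the fit 840 genes passed when induced and 453 in both states.

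The large differences were nearly all present in both states. All 198 genes at least 2-fold apart kept their sign when induced, and 191 passed the same way. Their median difference was 1.35 repressed and 1.18 induced for the higher genes, and -1.25 and -1.17 for the lower ones. All 28 genes named as highest and lowest passed when induced: Nckap1l read 8.33 and 8.31 in dnBrg1 against 4.69 and 4.60 in dnSnf2h, and Cdh5 read 4.37 and 4.38 against 7.76 and 8.04. Replicate readings of the same line thus gave the same order in either state for these genes.

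The line difference changed on induction in 126 genes (0.632%), 58 upward and 68 downward, of which 12 were among the 198 and 64 had no call in the repressed comparison. This count was 75 and 74 without the first and the second repressed dnBrg1 array, 57 and 46 without the first and the second induced dnBrg1 array, and 265 without repressed dnSnf2h replicate 1. It was 65 when only the groups compared were fitted, 26 with all probe sets as features, 77 with array weights and 7 when the control arrays were fitted too. Sting1, already lower in repressed dnBrg1, differed by -3.41 when induced (5.52 and 5.64 against 8.87 and 9.11), a change that did not pass with the control arrays in the fit. Mmp3 differed by 2.0 repressed and 0.71 induced. Csnk1g1, a casein kinase gene, was close between the repressed lines (7.30 and 7.02 against 7.06 and 7.46) and differed by 2.66 when induced (10.1 and 10.2 against 7.53 and 7.49).

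**Figure D5:**
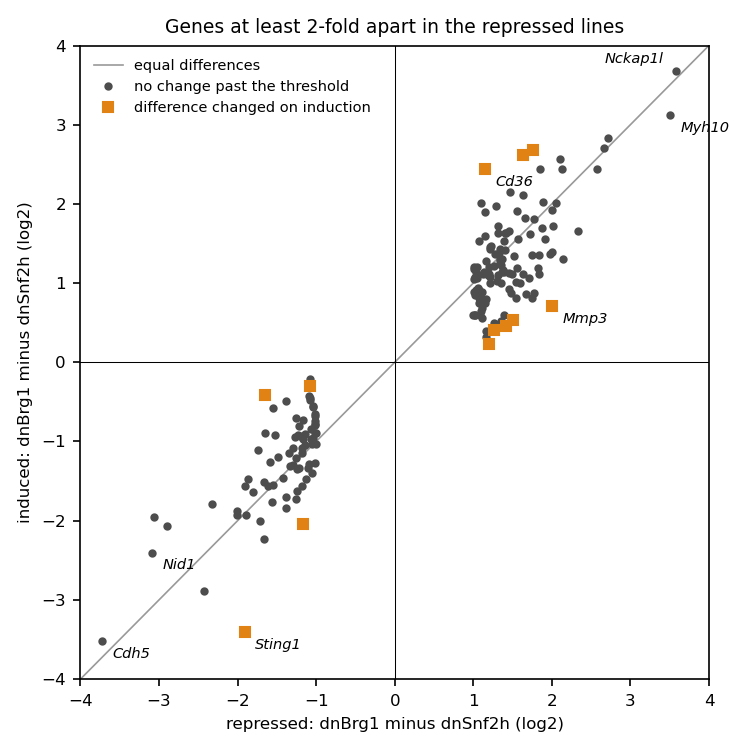
Difference dnBrg1 minus dnSnf2h (log2) in the induced arrays (vertical axis) against that in the repressed arrays (horizontal axis) for the 198 genes called and at least 2-fold apart in the repressed lines, 1 point a gene, with the line of equal differences. All points lie in the quadrants of equal sign; squares mark the 12 genes whose difference changed on induction past the threshold, Sting1, Mmp3 and Cd36 among them.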

How the data were processed

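Per the labels' protocols, about 100 ng of total RNA per sample was labelled with biotin and hybridized to Affymetrix arrays of the Mouse Gene ST type. The deposited table holds log2 values, a scale judged from its range of 2.02 to 14.9. The submitters' processing notes name Affymetrix Expression Console; which version and normalization it ran, and which build, is not given in the sources used here. Arrays give no read depth, and their small number limits the precision. The platform annotation gave 1 symbol to 21789 of 35557 probe sets; the brightest of a gene's probe sets was kept, leaving 19938 genes. The RefSeq gene table gave the chromosome and order of genes; no coordinate is reported, as the build of the files is unknown.

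The deposited log2 values of 12 arrays (6 groups of 2, with 6 residual degrees of freedom) were fitted with lmFit, contrasts.fit and eBayes of limma 3.58.1 (R 4.3.3), without the control arrays, and every p-value of a gene was adjusted by the Benjamini-Hochberg method over all genes, with 0.05 as the two-sided threshold. The fit and the block search were tested on simulated data. Named genes were the 14 highest and the 14 lowest differences with the arrays of the lines apart, up to 3 called genes with the largest difference in each of 45 lists (or the largest where none passed), the 4 highest and the 4 lowest changes on induction, and Smarca4, Smarca2, Smarca5, Smarca1, Chd4, Hras (which had no probe set of its own) and Xist. Not named by this rule were predicted genes, olfactory and vomeronasal receptors, and small RNA genes. The comparison, the genes and the lists were chosen with earlier results of these data known. Alternatives were other sets of arrays, a replicate block, other variance models, rescaling, other probe set rules, leaving out single arrays and other block settings.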

Additional observations from a re-analysis of the deposited data

Results flagged for a closer look

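The difference between the lines changed between the repressed and the induced arrays, by an interaction contrast past the threshold in limma, for 16 of the genes named by rule. The change is the induced minus the repressed line difference, in log2 units with 2 arrays in each of 4 groups. Upward changes were 2.76 for Csnk1g1, 2.23 for Auts2, 1.66 for the iron exporter gene Slc40a1, 1.57 for Cyp2b13, 1.29 for the fatty acid receptor gene Cd36, 1.23 for Cxcl3 and 0.79 for Timp1. Downward changes were -2.82 for the smooth muscle actin gene Acta2, -2.07 for the natriuretic peptide gene Nppb, -2.05 for the chemokine gene Ccl7, -1.96 for the cardiac troponin gene Tnnt2, -1.50 for Sting1, -1.32 for Lcn2, -1.29 for Mmp3, -1.10 for Lcp1 and -0.96 for Tbx3. In Cd36 and Cyp2b13 all 4 repressed arrays were under the dim level of 4.76. With the control arrays in the fit 6 of the 16 still passed (Auts2, Ccl7, Cd36, Csnk1g1, Mmp3 and Slc40a1) and 10 did not. With all probe sets as features 8 did not: Acta2, Cxcl3, Cyp2b13, Lcn2, Mmp3, Nppb, Tbx3 and Timp1. Timp1, Tbx3 and Lcn2 also lost the call when single arrays were left out: Timp1 without 7 of the 8 arrays in turn, Tbx3 without 3 and Lcn2 without 1.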

How the results depend on the processing

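Fitting only the groups compared gave 1014 genes past the threshold in the repressed lines and 65 for the change on induction. Fitting all 17 arrays gave 775 repressed, 840 induced, 7 for the change and 453 in both states. Array weights gave 1451 and 77 for the change. With all probe sets as features, 328 were at least 2-fold apart and 26 changed. Leaving out single arrays gave 1784 to 3377 genes repressed, 1439 to 2626 induced, 46 to 265 for the change, 950 to 1523 in both states and 211 to 235 at least 2-fold apart. The replicate block gave 2618 genes, 198 of them at least 2-fold apart; the numbers did not pair the samples (correlations of replicate deviations from -0.39 to 0.31 over 15 pairs of groups, 3 of them over 0.1), and exchanged dnSnf2h numbers, tried after seeing the data, gave 3419. A shift of 0.1 gave 23 chromosome blocks; it, the other block settings and block centring were also chosen after seeing the data. Genes that turned sign when single arrays were left out were Chd4 (-0.010 to 0.22), Csnk1g1 (-0.30 to 0.099) and Xist (-0.43 to 0.061), and after block centring Ddx3x (0.23), Kdm6a (0.029) and Smarca1 (0.42). Over the named genes and settings, 2296 values of the repressed difference kept direction and side of the threshold, 194 lost the call and 8 gained it. The cause of these shifts was not tested. Readings near 4.76 or lower limit what a difference of dim genes can show.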

Other observations

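Among the 21 genes called in opposite directions in the 2 states, singled out after their values were seen, were the cell adhesion gene Mcam, higher in repressed dnBrg1 by 0.85 and at -0.43 when induced, and the secreted pattern recognition gene Ptx3, at 0.63 and -0.73. The actin-binding gene Ablim1 went from -0.78 to 0.46, the mesothelin gene Msln from -0.48 to 0.61, the glycine transporter gene Slc6a9 from -0.63 to 0.40 and the glutamine transporter gene Slc1a5 from -0.45 to 0.61. For these 6 genes the change itself passed the threshold in limma, with adjusted p-values from 0.00166 to 0.0136. With the control arrays in the fit only 7 genes in all passed for the change, Auts2, Ccl7, Cd36, Csnk1g1, Mmp3 and Slc40a1 among them.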
